A study of Mus with 50 samples.

Results

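Among the livers of 50 mice, 4 had array profiles that were least like the others: those of animals 64, 84, 87 and 235. They were chosen by the median Pearson correlation of each array with the 49 others, taken over the 11090 genes at or above the median level. This value was 0.794 for liver 64, 0.857 for liver 235, 0.903 for liver 84 and 0.932 for liver 87. The next lowest livers, of animals 161 and 10, both stood at 0.944, and the median of the other 46 was 0.973. Liver 87 therefore lay close to the limit. When all 22180 named genes were used, its value was 0.967 and the lowest of the 46 was 0.963, so that liver 87 was no longer among the 4 lowest. Because the arrays themselves chose these livers, their differences from the other 46 are described below with no test and no p-value.

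The 50 mice were females from a backcross of the C57 and FVB strains. All bore the MMTV-Neu transgene, whose viral promoter is active mainly in mammary epithelium and expresses the proto-oncogene Neu there, and all had breast cancer listed as a comorbidity. Per the series design they were taken from the extremes of an ageing grade, but the labels do not give the grade or the age of a mouse, so the 4 livers could not be placed on it. The labels call the tissue liver, while the extraction protocol speaks of purified cells. With 1 array per mouse, the number of livers limits the precision. Values are log2 signals, array medians lay between 3.27 and 3.34, and levels of different genes cannot be set against each other.

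Hepatocytes make most of the plasma proteins, build cholesterol, bile acids and lipoproteins, and clear drugs, ammonia and hormones. These programmes depend on a network of liver transcription factors, among them HNF4A and C/EBP alpha. Sterol and fatty acid synthesis are in addition switched by the SREBP factors, which enter the nucleus when sterols are low or insulin is high. In bulk tissue, fewer cells of a type and less RNA per cell cannot be told apart.

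**Figure D1:**
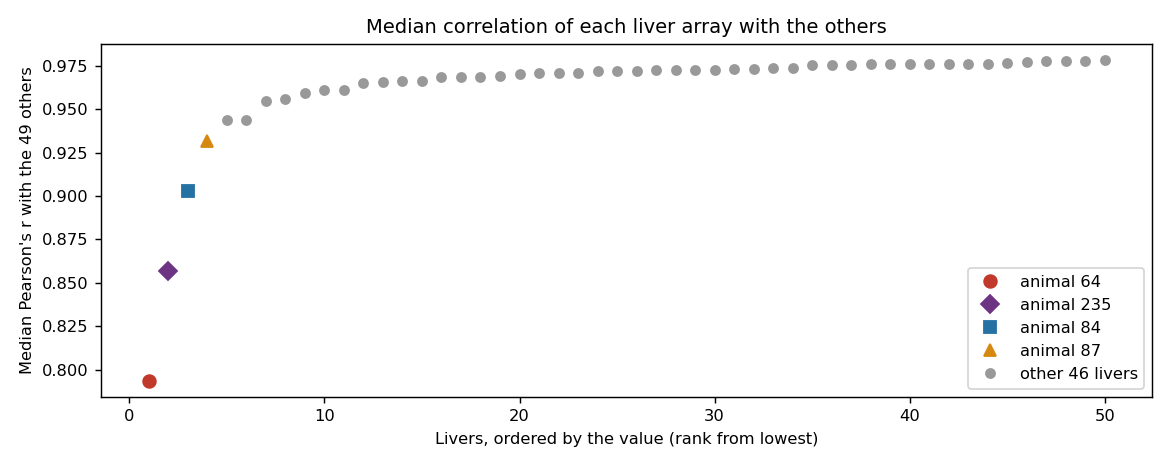
Median Pearson correlation of each liver array with the 49 others (vertical axis) against rank (horizontal axis), over 11090 genes. Livers 64, 235, 84 and 87 lie at 0.794, 0.857, 0.903 and 0.932, and the other 46 run from 0.944 to 0.978.

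The 4 livers stood apart in different ways, and each carried a signal of other cells. Liver 84 went against its label in part, because it held strong kidney transcripts. Umod, the uromodulin gene of the thick ascending limb, had a log2 signal of 10.46 in liver 84, against 3.19, 2.97 and 3.26 in livers 64, 87 and 235. In the other 46 livers it ran from 2.89 to 4.58. The proximal tubule receptor genes Lrp2 and Cubn reached 10.02 and 9.26 in liver 84. Their highest values among the 46 were 6.32 and 4.95. Kap, an androgen-regulated kidney gene, was at 9.41 there and at most 2.86 in the 46. Of 21 measured genes in a proximal tubule list, 18 were above all 46 livers in liver 84, as were 14 of 16 distal nephron genes and 3 of 6 glomerular genes. The list means were 8.47, 6.38 and 4.65, against 46-liver ranges of 4.13 to 5.56, 2.83 to 3.56 and 3.27 to 3.71. The proximal tubule list also holds Hnf4a, which liver expresses. The 10 hepatocyte markers had a mean of 12.13 in liver 84, inside the range of 11.98 to 12.43 of the 46, but they went both ways. Of these markers 5 were below the 5th percentile and 4 above the 95th, beside 17.7% and 18.3% of all genes. Ttr was at 11.37 against a median of 12.91 and Cps1 at 12.68 against 12.11. These 3 kidney lists were drawn up after the values had been seen. Counts of shared genes in lists are therefore also given without liver 84 where that changes them.

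Liver 64 carried the transcripts of red cell precursors and of dividing cells. All 8 measured erythroid genes were above all 46 livers, with a list mean of 8.96 against 3.11 to 5.56. The erythroid master regulator genes Klf1 and Gata1 had signals of 8.32 and 7.49, and their highest values in the 46 were 3.64 and 3.68. The red cell membrane genes Slc4a1, Rhag and Ermap were at 10.92, 8.89 and 10.43. Gfi1b, a transcription factor of erythroid and megakaryocyte precursors, was at 8.91 in liver 64, at 3.24, 3.31 and 3.75 in livers 84, 87 and 235, and at most 4.39 in the 46. Of 35 cell cycle genes 34 were above all 46. The proliferation marker Mki67 stood at 11.13, against 4.45 to 7.92.

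Liver 235 was rich in macrophage and cell cycle transcripts. Of 21 macrophage and Kupffer cell genes, 16 were above all 46 livers, and the list mean was 8.68 against 5.53 to 7.40. The Kupffer cell genes Clec4f, Vsig4 and Timd4 had signals of 11.24, 11.83 and 9.07, above the 46-liver maxima of 9.68, 9.56 and 8.48. Other genes known from myeloid cells were high in this liver too. Itgam, which encodes the integrin chain CD11b, was at 9.62, against 4.15, 4.97 and 4.77 in livers 64, 84 and 87 and a maximum of 5.36 in the 46. Siglec1, a sialic acid receptor of macrophages, was at 10.14, and Mmp9, a matrix protease, was at 9.56. Marco, a scavenger receptor of Kupffer cells, did not follow, at 5.19 inside the range of 4.96 to 10.15. Of 35 cell cycle genes 32 were above all 46, with a list mean of 5.93 against 7.96 in liver 64.

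Liver 87 held T cell and platelet transcripts. Of 14 T and NK cell genes 11 were above all 46 livers, with a list mean of 5.94 against 3.18 to 4.65. The T cell receptor complex gene Cd3e was at 8.25, against 3.84, 3.88 and 5.54 in livers 64, 84 and 235 and at most 6.87 in the 46. Cd8a and Cd8b1, the 2 chains of the CD8 co-receptor, were at 6.42 and 7.70, and their maxima in the 46 were 3.89 and 5.11. Il7r, the interleukin 7 receptor of resting T cells, was at 8.18, and Gzma, a granule protease of killer cells, was at 2.65, near its median of 2.67 in the 46. Of 8 megakaryocyte and platelet genes 7 were above all 46, among them the platelet chemokine gene Ppbp at 9.87. The platelet list mean was 6.04 in liver 87 and 5.01 in liver 235, both above the highest of the 46 at 4.67. The hypoxia and glycolysis list had means of 7.37 in liver 87 and 7.05 in liver 235, both above the range of 5.86 to 7.01. In these livers 17 and 13 of 23 members were above the 95th percentile, beside 12.4% and 17.4% of all genes.

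The mammary and MMTV-Neu tumour list had means of 3.93, 4.50, 4.14 and 4.02 in livers 64, 84, 87 and 235, against 3.86 to 7.88 with a median of 4.05. All 4 lay inside that range. In liver 84, the highest of them, 5 of 18 members were above the 95th percentile, as were 18.3% of all genes. Csn2, which encodes the milk protein beta-casein, was between 2.25 and 2.56 in the 4 livers and reached 12.05 among the 46. Erbb2, the mouse gene for Neu, was at 5.36 in liver 84 and between 3.13 and 3.43 in livers 64, 87 and 235, with a median of 3.50 and a range of 3.18 to 9.65 in the 46. The part of the erythroid, kidney, T cell and macrophage signals in the losses described next was not tested.

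**Figure D2:**
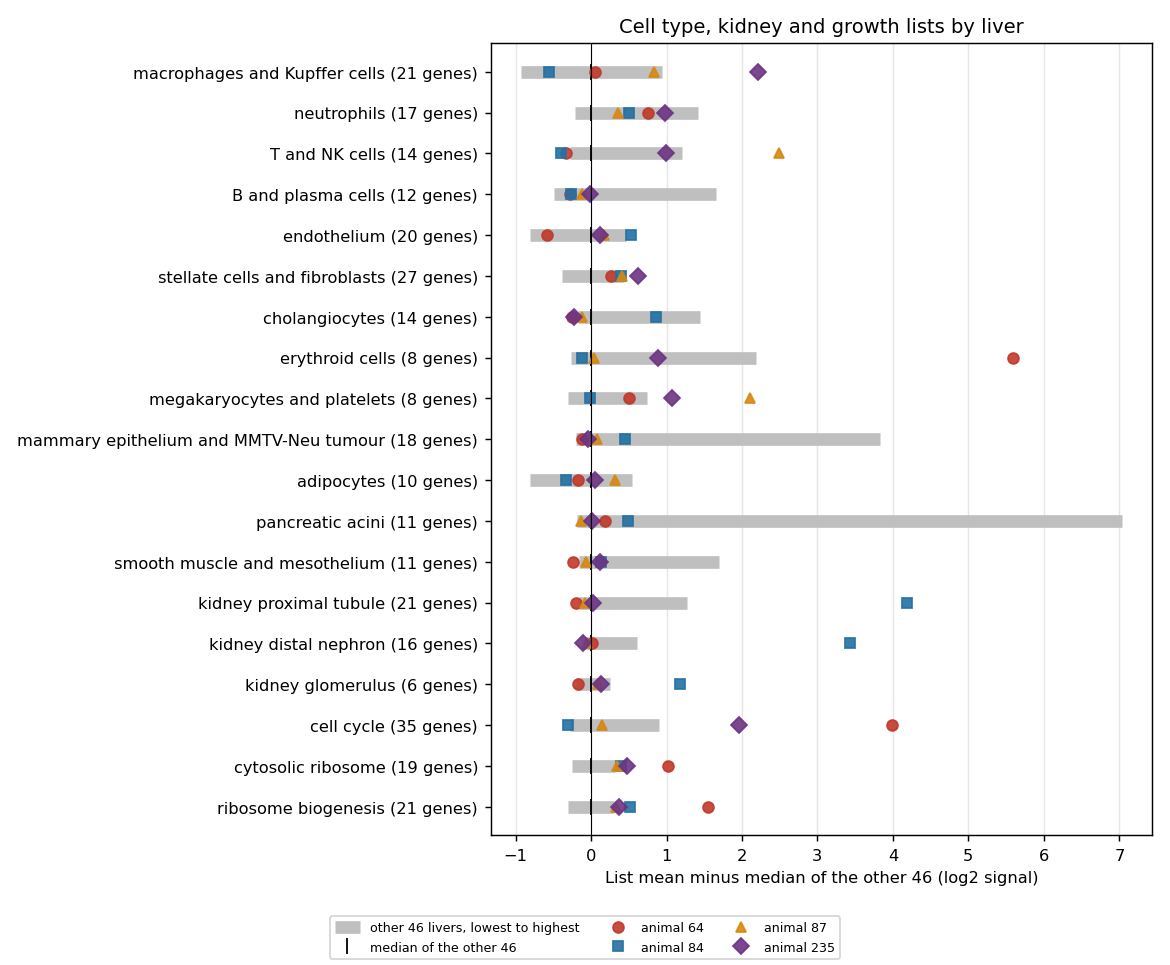
Mean of each gene list minus the median of the other 46 livers (horizontal axis, log2 signal) for 13 cell type lists, 3 kidney lists and 3 growth lists. Grey bars span the other 46 livers, and coloured points are the 4 livers: erythroid genes stand out in liver 64, kidney genes in liver 84, T cell and platelet genes in liver 87 and macrophage genes in liver 235.

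A gene was counted as shared when all 4 livers lay below the 5th percentile of the other 46, or all 4 above the 95th. By this rule 461 genes (2.08% of 22180) were shared lower and 455 (2.05%) shared higher. Of these, 175 genes (0.789%) were below all 46 livers in each of the 4, and 144 (0.649%) were above all 46. Among the 11090 genes at or above the median level, 419 (3.78%) were shared lower and 419 (3.78%) shared higher. Taken alone, liver 64 lay below the 5th percentile for 26.3% of genes, liver 235 for 20.1%, liver 84 for 17.7% and liver 87 for 13.6%. Above the 95th percentile the shares were 20.5%, 17.4%, 18.3% and 12.4% in the same order. In livers 64, 84, 87 and 235, 3512, 2456, 1228 and 2538 of the 22180 genes were above all 46. The shared lower genes had median differences from the 46-liver median of -1.58 in liver 64, -0.92 in liver 84, -0.70 in liver 87 and -1.003 in liver 235 on the log2 scale. Over all genes the medians were -0.06, -0.03, -0.03 and -0.04. The shared higher genes differed less, with medians of 1.14, 0.62, 0.54 and 0.67. A difference of at least 1 log2 in each of the 4 livers was seen for 95 shared lower genes and 13 shared higher ones. The rule itself used these differences, so they describe the genes and support nothing. Leaving out a liver can only add genes. Without liver 84 the 3 remaining livers shared 861 lower (3.88%) and 732 higher (3.3%) genes, and without liver 87 they shared 958 (4.32%) and 816 (3.68%). The counts were 564 (2.54%) and 691 (3.12%) without liver 64, and 633 (2.85%) and 717 (3.23%) without liver 235.

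Most shared genes were in no list: 348 of the 461 shared lower and 436 of the 455 shared higher genes. Of 472 measured genes in 21 hepatocyte lists, 108 (22.9%) were shared lower, against 2.08% of all genes and 3.78% of those at or above the median level, and 1 was shared higher. The 417 genes of 20 stress, growth and signalling lists held 5 shared lower (1.2%) and 18 shared higher. The 184 genes of 13 cell type lists held 2 (1.09%) and 1. Over all genes the shares were 2.08% lower and 2.05% higher, and 3.78% for each at or above the median level. Without liver 84 the shared lower and higher counts were 143 and 2 in the hepatocyte lists, 8 and 36 in the stress, growth and signalling lists, and 5 and 8 in the cell type lists. The shares over all genes were then 3.88% and 3.3%. The lists were unequal. Cholesterol synthesis had 17 of 19 members shared lower, lipogenesis 11 of 22, and the urea cycle and periportal list 0 of 17. With a list of 10 hepatocyte markers added, 22 list means could be set against the 46 livers. All 22 were below the lowest of the 46 in at least 1 of the 4 livers. In liver 64 this held for 21 lists, in liver 235 for 20, in liver 84 for 14 and in liver 87 for 3. Those 3, cholesterol synthesis, lipogenesis and plasma proteins, were below the lowest of the 46 in each of the 4 livers.

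**Figure D3:**
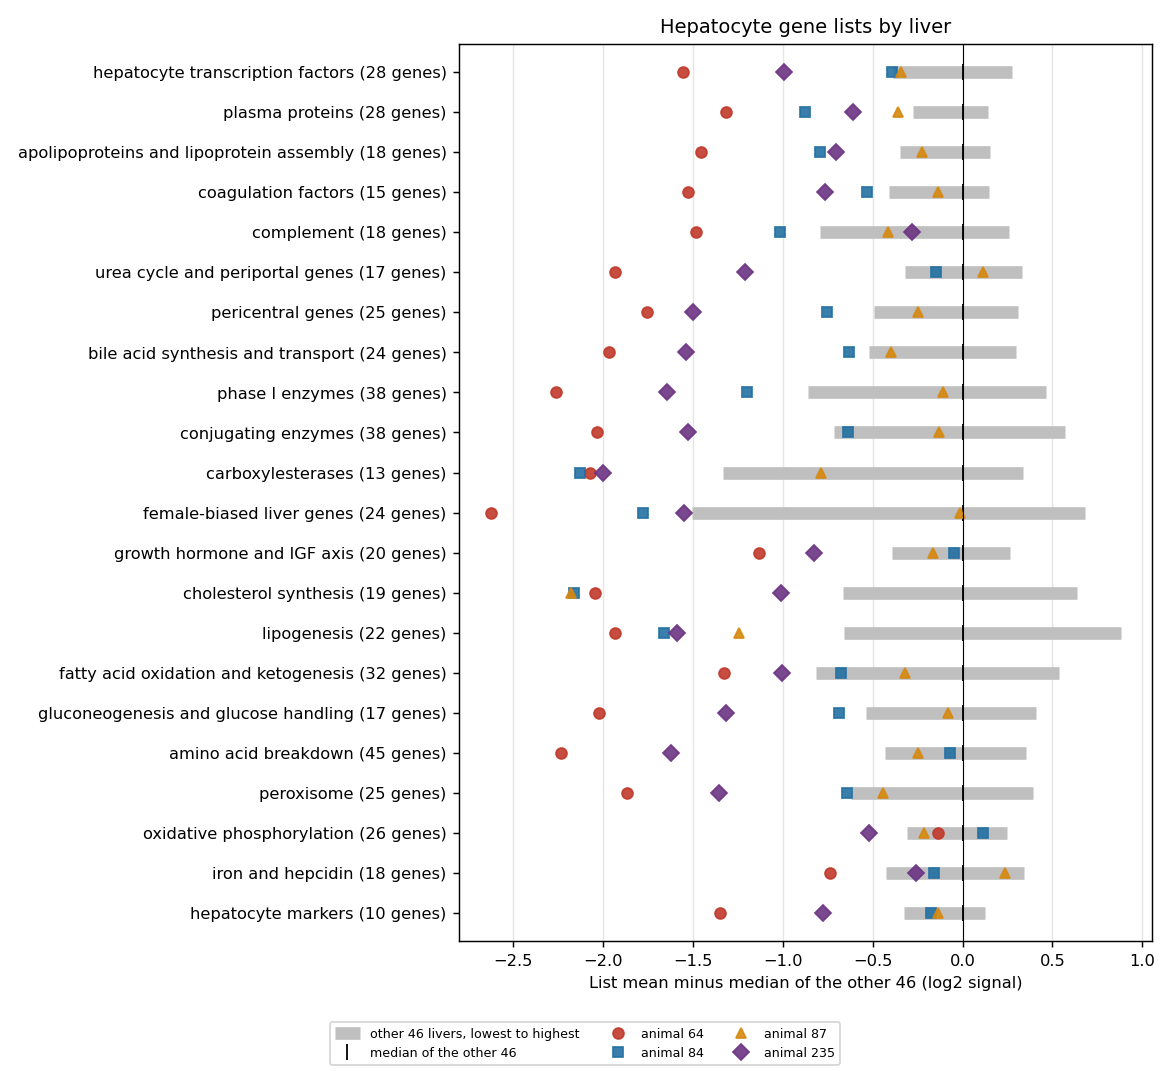
Mean of each hepatocyte list minus the median of the other 46 livers (horizontal axis, log2 signal), with grey bars for the range of the 46 and coloured points for the 4 livers. The points of all 4 livers lie left of the bar for cholesterol synthesis, lipogenesis and plasma proteins, while liver 87 lies inside the bar for the other lists.

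Cholesterol synthesis was the programme the 4 livers had most in common. The list means were 6.49, 6.38, 6.36 and 7.53 in livers 64, 84, 87 and 235, against 7.87 to 9.17 in the 46. The median difference over the 19 genes was -2.07, -2.18, -1.94 and -0.98. In livers 64, 84 and 87, all 19 genes were below all 46 livers, and in liver 235 this held for 11. Liver 87, the mildest of the 4 in most lists, was as low here as liver 64. The 17 shared genes were the same number without liver 64, 84 or 87, and 19 without liver 235.

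The loss ran along the pathway. Hmgcs1, which makes HMG-CoA at its entry, had signals of 7.91, 8.52, 7.50 and 9.72 in livers 64, 84, 87 and 235, against 9.82 to 11.43 with a median of 10.69 in the 46. No value of the 4 reached the range of the 46. Fdps, the farnesyl diphosphate synthase that feeds both sterols and prenyl groups, was at 6.52, 5.75, 5.55 and 7.43, against 8.003 to 10.02 with a median of 9.08. Cyp51, the lanosterol demethylase, was at 6.45, 7.33, 4.92 and 7.77, against 7.98 to 9.64 with a median of 8.92. Its difference of -3.997 log2 from the median in liver 87 was the widest among the 19 genes. Sc5d and Tm7sf2, of the last steps to cholesterol, were also below all 46 in each liver. Sc5d stood at 8.29, 7.88, 9.04 and 9.28 against a lowest value of 9.92, and Tm7sf2 at 6.34, 5.01, 6.20 and 7.04 against 7.67.

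Regulators of the pathway were low as well. Insig1, which encodes the membrane protein that holds SREBP back and is itself an SREBP target, was at 7.46, 7.42, 9.06 and 9.17, against 9.67 to 11.45. The 2 members that were not shared were Dhcr7, the enzyme of the final reduction, and Srebf2, the gene of SREBP-2. Both were low in livers 64, 84 and 87 and inside the percentiles in liver 235. Dhcr7 was at 6.54, 5.67, 5.76 and 7.995, against 7.24 to 9.25. Srebf2 was at 6.48, 6.55, 6.25 and 7.32, against 6.92 to 8.43.

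Fatty acid synthesis and desaturation followed. Median differences over the 22 lipogenesis genes were -1.84, -1.78, -1.27 and -1.63 in livers 64, 84, 87 and 235. Fasn, the fatty acid synthase, had signals of 7.60, 7.19, 7.37 and 8.41, all below the lowest of the 46 at 8.94. The desaturase gene Fads2 was at 8.71, 8.42, 8.84 and 8.93, against 9.84 to 11.71. The elongase genes Elovl5 and Elovl6 were below all 46 too. Elovl6 was at 6.06, 6.16, 6.24 and 6.64 against 7.00 to 10.03. Acss2, which makes acetyl-CoA from acetate, was at 6.83, 6.82, 6.79 and 6.09 against 7.15 to 10.03. Scd1, the stearoyl-CoA desaturase, was at 8.33, 9.36, 8.87 and 10.16. Liver 235 was inside the range of 9.45 to 12.48 there, though below the 5th percentile.

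Other lipogenic genes split the 4 livers. Srebf1, the gene of SREBP-1, was shared lower at 6.12, 5.64, 6.60 and 5.97, with 6.46 as the lowest of the 46, so that liver 87 overlapped them. Thrsp, a lipogenic gene of the insulin and thyroid hormone response, was at 5.34, 5.51 and 5.56 in livers 64, 84 and 235 and at 8.64 in liver 87, near the median of 9.06. Dgat2, which makes triglyceride, was at 7.18, 8.88 and 8.13 in the same 3 livers and at 9.82 in liver 87, against 9.26 to 10.40. Acly, the citrate lyase, was low in livers 64, 84 and 87, and its value of 8.85 in liver 235 lay inside the range of 8.26 to 10.40. Without liver 87 the lipogenesis count was 14 of 22, and without liver 84 it was 13. The shares of all genes were then 4.32% and 3.88%.

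**Figure D4:**
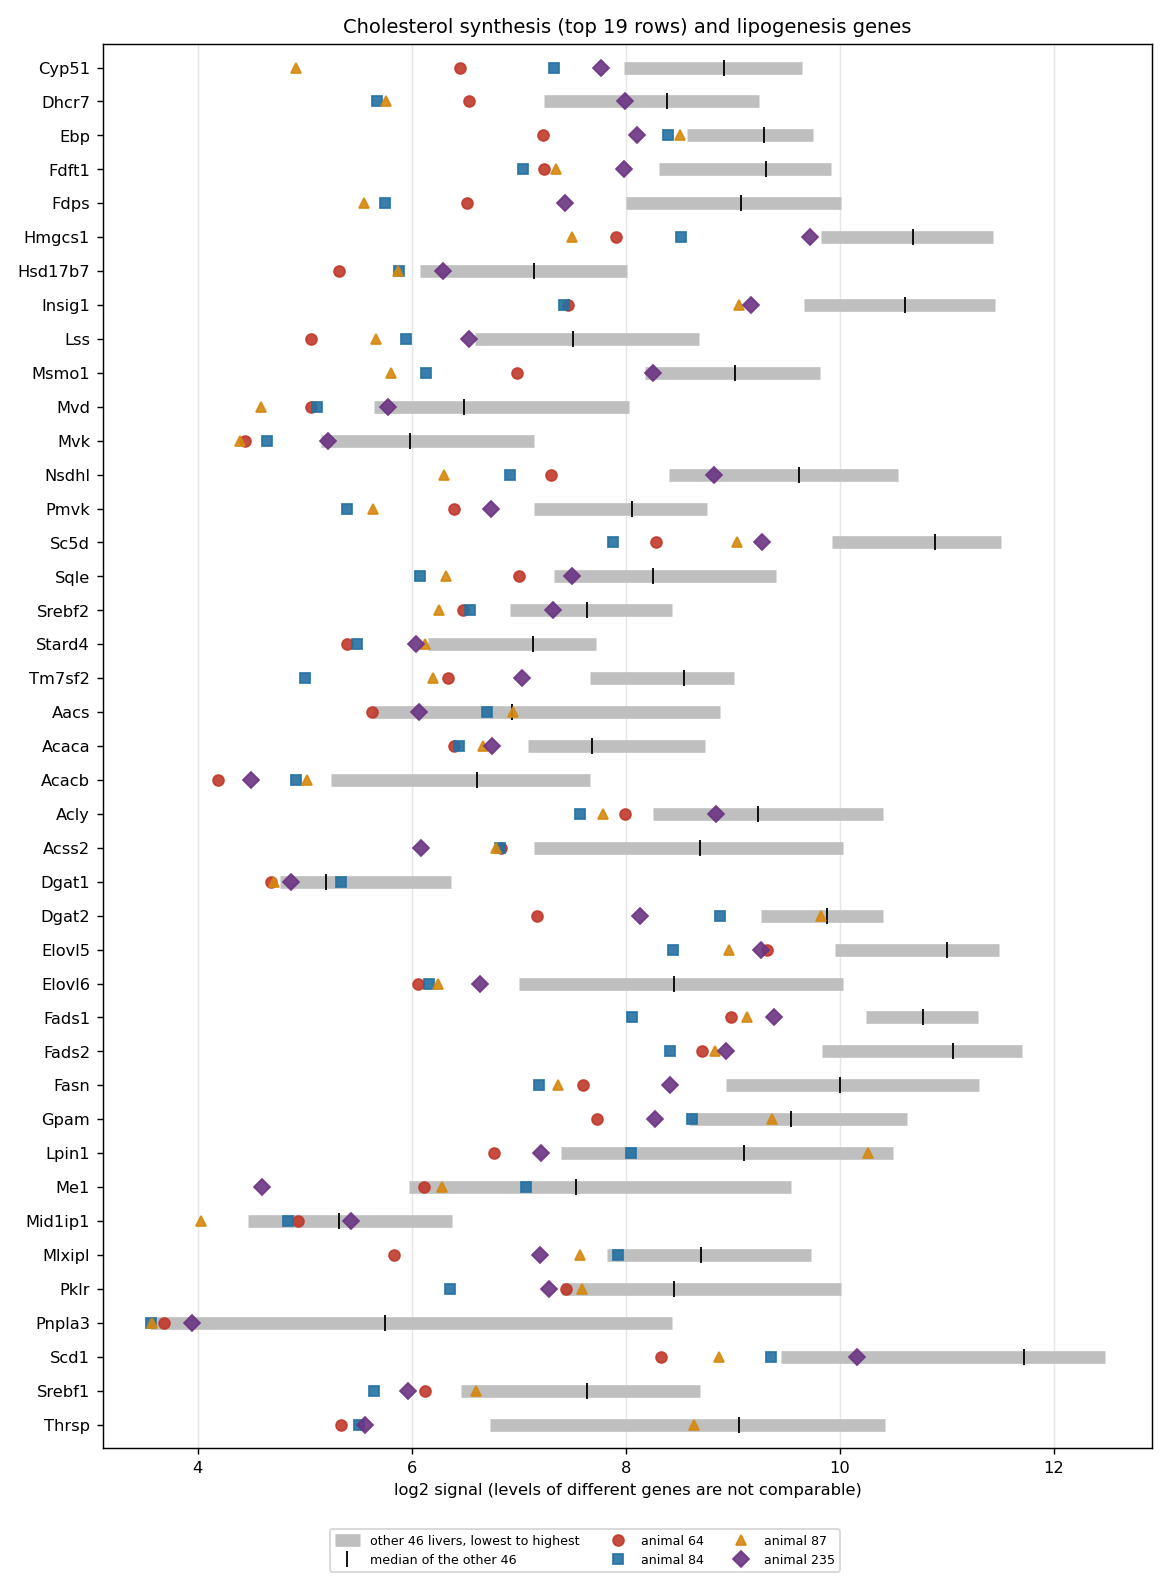
log2 signal (horizontal axis) of the 19 cholesterol synthesis genes and, below them, the lipogenesis genes. Grey bars span the other 46 livers, black ticks their median and coloured points the 4 livers: most points lie left of the bars, with liver 235 nearest to them among the sterol genes and liver 87 inside them for Thrsp, Dgat2 and Lpin1.

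Bile acid handling was lost in part. Of 24 genes 8 were shared lower, and 9 without liver 84, where 3.88% of all genes were. Abcc4, an export pump on the blood side of the cell, was shared higher. Slc27a5, the bile acid-CoA ligase, had signals of 7.00, 8.35, 8.80 and 7.93, all below the lowest of the 46 at 9.10. Hsd3b7, an early enzyme of bile acid synthesis, was at 6.78, 7.62, 7.76 and 7.67 against a lowest value of 7.88. The uptake carrier Slc10a1 was at 9.06, 9.98, 10.76 and 9.83, and the canalicular export pump Abcb11 at 7.12, 8.10, 9.18 and 8.46. For both, liver 87 lay within the range of the 46 but below the 5th percentile. Abcc4 was at 6.87, 7.82, 5.50 and 5.54, against 4.07 to 5.62, so that livers 87 and 235 overlapped the highest of the 46. Cyp7a1, the rate-limiting enzyme of the classic pathway, was not shared: it was at 6.55 and 5.10 in livers 64 and 235, at 7.68 and 8.21 in livers 84 and 87, and it ran from 5.35 to 11.04 in the 46.

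Lipoprotein and plasma protein genes were reduced unevenly. Of 18 apolipoprotein and lipoprotein assembly genes 7 were shared lower, and 13 without liver 87, where 4.32% of all genes were. Apon and Apof were below all 46 in each liver. Apof, the gene of an inhibitor of cholesteryl ester transfer, was at 8.75, 9.85, 10.06 and 9.45, against 10.09 to 10.80. Apob, the backbone of VLDL and LDL, was at 11.72, 12.25, 12.42 and 12.11, against 12.39 to 12.68. Its 46-liver SD was 0.06, so that a difference of -0.14 in liver 87 was already below the 5th percentile. Apoa1 was not shared, and livers 84, 87 and 235 were inside the percentiles at 11.88, 11.81 and 11.88.

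Of 28 plasma protein genes 7 were shared lower, and 12 without liver 84 or without liver 87. Itih1, a hyaluronan-binding inhibitor heavy chain, was at 9.71, 9.49, 10.41 and 10.22, against 10.58 to 11.31. Cpn1, a carboxypeptidase that trims kinins, was at 8.25, 9.40, 9.67 and 9.41, against 9.95 to 10.78. Serpinf2, the plasmin inhibitor, was likewise below all 46. Ttr, the thyroid hormone carrier, was shared lower at 12.22, 11.37, 12.52 and 12.66. Alb, the albumin gene, was at 13.34, 13.31, 13.45 and 13.45, against 13.20 to 13.54, so that none of the 4 left the range of the 46. The largest value of the whole table was 13.54, and whether the top of the scale limits the Alb values was not tested. Of 15 coagulation genes 2 were shared lower, F12 and Proc, and without liver 87 there were 10. Of all genes, 3.88% were shared lower without liver 84 and 4.32% without liver 87. Of 18 complement genes 5 were, led by the lectin gene Mbl1 at 5.83, 7.00, 7.17 and 6.90 against 7.60 to 9.44.

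Phase I enzymes, which oxidise drugs and steroids, were low in 3 of the 4 livers as a list. Of 38 phase I genes 8 were shared lower, and 21 without liver 87. The list mean was 6.31, 7.37 and 6.93 in livers 64, 84 and 235, below the 46-liver range of 7.71 to 9.03, and 8.46 in liver 87. Cyp1a2, a pericentral cytochrome for aromatic amines and caffeine, was low in all 4, at 4.50, 5.91, 8.08 and 6.20 against 8.26 to 10.62. Ahr, the gene of the receptor that induces it, was at 6.07, 7.39, 7.22 and 6.85 against 7.28 to 8.48. Cyp2e1, which oxidises ethanol, was at 9.38, 11.73, 11.997 and 9.06 against 11.56 to 12.72, and only liver 87 lay inside the percentiles. Of 38 conjugating enzyme genes the 2 shared lower ones were Gsta3 and Gstt1, both below all 46 in each liver, and without liver 84 there were 4. Over all genes the shares were 2.08%, 3.88% without liver 84 and 4.32% without liver 87. The conjugating list means were 5.50 and 6.01 in livers 64 and 235, below the range of 6.82 to 8.11, and 6.90 and 7.41 in livers 84 and 87, inside it. The female-biased list gave 3 of 24, and 13 without liver 87. One of its members, A1bg, was at 5.43, 7.25 and 6.74 in livers 64, 84 and 235 and at 11.71 in liver 87, above the median of 11.50.

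Among carboxylesterases, which hydrolyse esters and drugs, 3 of 13 were shared lower and 9 of 13 without liver 87, where 4.32% of all genes were. Ces3b was at 4.13, 5.31, 5.25 and 3.47, against 5.37 to 9.09, and Ces2a was at 6.16, 6.88, 7.76 and 6.88, against 7.94 to 9.83. The carboxylesterase, Cyp2b, Cyp3a and ribosomal protein families have near-identical members or copies whose signals the probes may share.

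Some programmes were far lower in livers 64 and 235 than in livers 84 and 87. The urea cycle and periportal list had a median difference of -1.87 in liver 64 and -1.30 in liver 235, against -0.06 in liver 84 and -0.10 in liver 87. No member was shared lower by all 4, and 1 was without liver 84. Cps1, the entry enzyme of the urea cycle, was at 10.29 and 11.29 in livers 64 and 235 and at 12.68 and 12.25 in livers 84 and 87, with a range of 11.73 to 12.50 in the 46. Amino acid breakdown split the same way, with medians of -2.35, -0.06, -0.31 and -1.61 in livers 64, 84, 87 and 235, and 9 of 45 genes shared lower. Haao and Ido2, of tryptophan breakdown, were nonetheless below all 46 in each of the 4. Haao was at 6.59, 8.60, 8.91 and 7.64 against 9.05 to 10.40. Without liver 84 the count was 19 of 45, where 3.88% of all genes were shared lower.

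In gluconeogenesis and glucose handling, 4 of 17 were shared lower. G6pc, the glucose-6-phosphatase that releases glucose, was at 8.13, 9.71, 9.57 and 8.47, against 9.98 to 11.83. Gcgr, the glucagon receptor gene, was at 5.34, 6.20, 6.40 and 5.89, against 6.60 to 7.84. Neither gene overlapped between the groups. Pck1, the other main gluconeogenic enzyme gene, was at 9.39 and 10.34 in livers 64 and 235, and at 11.98 and 11.32 in livers 84 and 87, inside the percentiles.

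Peroxisomes, which shorten very long fatty acids and bile acid side chains, had 9 of 25 genes shared lower, 13 without liver 84 and 15 without liver 87. The shares of all genes were 2.08%, 3.88% and 4.32%. Nudt7, a peroxisomal enzyme that splits coenzyme A esters, was at 4.41, 5.61, 5.27 and 4.92 against 5.53 to 7.91, and only liver 84 overlapped the 46. Crot, a carnitine acyltransferase of peroxisomes, was at 9.42, 8.92, 9.36 and 9.65 against 9.58 to 11.47. Of 32 fatty acid oxidation and ketogenesis genes 7 were shared lower, 9 without liver 84, among them the ketone body enzyme gene Bdh1 at 6.32, 5.62, 6.84 and 6.38, below the lowest of the 46 at 6.90. Oxidative phosphorylation gave 1 of 26, Ndufa1, near the share of 3.78% among all genes at or above the median level. Without liver 84 it gave 2, where 3.88% of all genes were shared lower. Its list medians were -0.12, 0.09, -0.20 and -0.53.

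Of 28 hepatocyte transcription factors 4 were shared lower: Nr0b2, Srebf1, Creb3l3 and Nr5a2. Nr0b2, the gene of SHP, a repressor in bile acid feedback, was at 5.34, 5.03, 5.53 and 5.33, against 5.65 to 8.09 with a median of 7.05. It was the only one of the 28 below all 46 in each liver. Creb3l3, an activator of triglyceride clearance genes in the endoplasmic reticulum membrane, was at 7.61, 7.41, 8.28 and 7.80, against 8.23 to 9.35. Nr5a2, the bile acid synthesis regulator LRH-1, was at 6.61, 7.82, 7.73 and 6.87, against 7.67 to 8.98, so that livers 84 and 87 overlapped the 46.

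The core factor Hnf4a was not shared. It was at 8.02 and 8.86 in livers 64 and 235, below the lowest of the 46 at 9.57, at 9.86 in liver 87, and at 10.45 in liver 84, above the highest at 10.39. The kidney list holds Hnf4a as well. Cebpa was at 6.44 and 7.50 in livers 64 and 84, and at 8.41 and 8.04 in livers 87 and 235, inside the percentiles. Klf15, a fasting factor, was at 4.76 and 5.35 in livers 64 and 235 and at 8.10 and 7.87 in livers 84 and 87, against 7.20 to 8.78. Foxa1 and Foxa2, pioneer factors of liver chromatin, were below all 46 in livers 64, 87 and 235 and inside the percentiles in liver 84. Foxa1 was at 4.32, 4.37 and 4.40 in those 3 livers against 4.64 to 6.74, and at 5.15 in liver 84. Without liver 84 the count of shared lower factors was 10 of 28, and without liver 87 it was 7. The shares of all genes were then 3.88% and 4.32%.

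**Figure D5:**
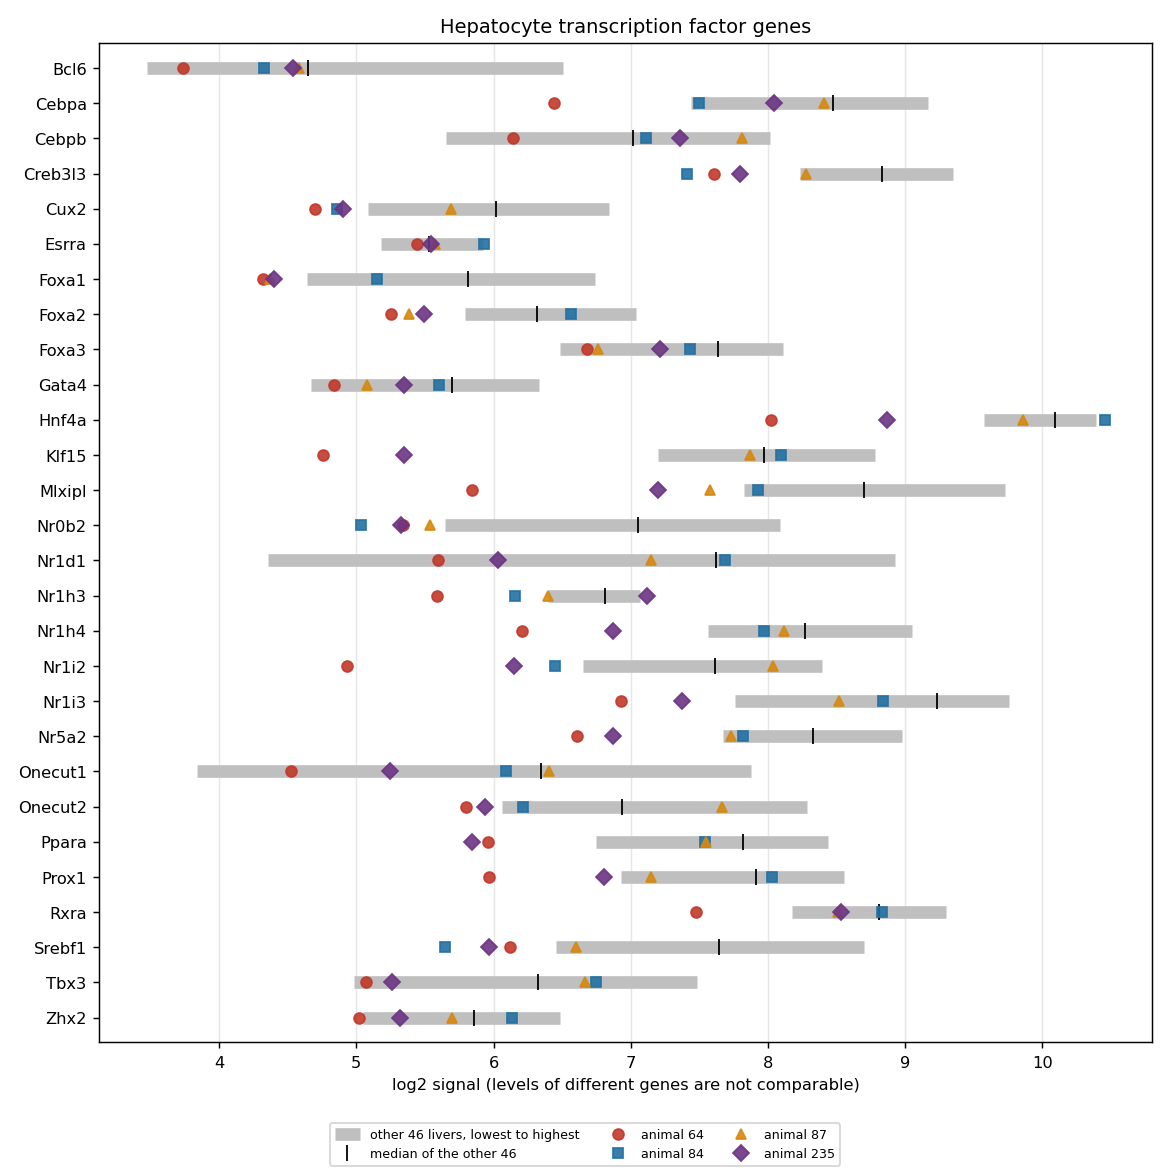
log2 signal (horizontal axis) of 28 hepatocyte transcription factor genes, with grey bars for the range of the other 46 livers, black ticks for their median and coloured points for the 4 livers. Nr0b2 lies left of the bar in each of the 4, while Hnf4a and Klf15 lie far left in livers 64 and 235 and within or above the bar in livers 84 and 87.

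The shared lower genes with the widest gaps were mostly enzymes and secreted proteins. Hamp2, a hepcidin-like gene, was at 3.98, 2.10, 4.55 and 3.29, but it ran from 3.08 to 10.30 in the 46, so that the groups overlapped. Hamp, the hepcidin gene itself, was at 12.67 and 12.38 in livers 84 and 87, close to the median of 12.34, and at 9.40 and 10.57 in livers 64 and 235. Lect2, a secreted hepatokine, was at 6.39, 6.24, 7.26 and 7.10, against 7.46 to 9.84. Tlcd2, a gene of membrane lipid composition, was at 5.32, 4.26, 4.78 and 6.12, against 6.36 to 9.22. Sytl5, of vesicle transport, was at 4.33, 3.97, 4.31 and 4.19, against 4.78 to 7.19. Rtp3, a liver gene of the receptor transporter family, was at 4.60, 5.44, 5.30 and 5.56, against 5.71 to 7.78. For Lect2, Tlcd2, Sytl5 and Rtp3 none of the 4 livers reached the 46.

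Of 20 growth hormone and IGF axis genes 2 were shared lower, Igfals and Serpina12, and 4 without liver 84, where 3.88% of all genes were. The list medians were -1.24, -0.19, -0.07 and -0.80 in livers 64, 84, 87 and 235. In liver 84, 5 of the 20 members were above the 95th percentile, as were 18.3% of all genes. Esr1, the oestrogen receptor gene, belongs to the mammary and tumour list and not to this one. It was shared lower at 5.17, 5.89, 6.38 and 5.58, with no overlap with the range of 6.42 to 7.85. Igfals, which keeps IGF-1 in the circulation, was at 6.34, 5.45, 7.42 and 6.65, against 7.42 to 8.87. Igf1 and Ghr, the growth hormone receptor gene, were low in livers 64, 84 and 235 and inside the percentiles in liver 87, where Igf1 was at 9.20 and Ghr at 8.30.

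Of the 15 shared higher genes with the largest weakest differences, 6 were still shared when arrays were centred on the ribosome list. Only this count is given, so the genes described next are not to be read as those 6. Adm, the vasodilator adrenomedullin, which hypoxia and inflammation induce, was at 5.56, 5.58, 7.28 and 6.04, above all of the 46, which ran from 3.22 to 5.39. Slc1a5, a glutamine carrier, was at 6.82, 4.76, 4.86 and 5.06, against 2.82 to 4.87, so that livers 84 and 87 overlapped the highest of the 46. Esm1, an endothelial gene of the VEGF response, was at 5.73, 6.83, 4.45 and 5.06, against 2.69 to 4.89. Angpt2, an endothelial growth factor gene, was at 4.55, 3.71, 4.40 and 3.89, against 2.55 to 4.07. Oxct1, which lets tissues other than hepatocytes burn ketone bodies, was at 7.00, 7.48, 5.54 and 6.71, against 3.82 to 6.17. Slc25a4, the ADP/ATP carrier of heart and muscle, was at 7.39, 6.98, 6.02 and 6.64, against 4.14 to 7.36. Far1, a fatty alcohol enzyme of ether lipid synthesis, was at 7.71, 6.43, 5.79 and 6.90, against 4.06 to 6.18. Angpt2 is not among the 15. For Esm1, Angpt2, Oxct1, Slc25a4 and Far1 at least 1 of the 4 livers lay within the range of the 46. Of 20 endothelial genes none was shared higher and 1, Wnt2, was shared lower, or 2 without liver 84. Over all genes 2.08% were shared lower, and 3.88% without liver 84. The endothelial list had means of 6.35, 7.47, 7.10 and 7.05 against 6.13 to 7.40, with 9 of 20 members above all 46 in liver 84, and its part in the Esm1 and Angpt2 values was not tested.

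Ribosomal and nucleolar genes made up the largest group of shared higher genes in the lists. Of 19 cytosolic ribosome genes 7 were shared higher, and of 21 ribosome biogenesis genes 6, or 8 without liver 84, where 3.3% of all genes were. Both list means were above all 46 livers in each of the 4. For ribosome biogenesis they were 7.66, 6.63, 6.44 and 6.48, against 5.81 to 6.41. Npm1, the nucleolar phosphoprotein gene, was at 10.28, 9.02, 8.74 and 8.61, against 7.37 to 8.55, and Nop56, of the small nucleolar particles, was at 9.10, 7.45, 7.42 and 7.66, against 5.71 to 7.27. Rpl3 was at 10.79, 9.85, 9.73 and 9.56, against 7.92 to 9.48. Centring each array on its median left 7 and 5 shared higher genes in the 2 lists. When each array was centred on the ribosome list, which sets that list near 0 by construction, the median over all genes moved to -1.10, -0.44, -0.39 and -0.54, and the shared higher genes were 1 and 0. These higher values are thus relative to the other genes on the arrays. Cholesterol synthesis then had 19 of 19 shared lower, against 17 before. The same centring moved the 4 arrays down, so that 8534 of all 22180 genes were shared lower, against 461 before. The count of 19 therefore adds nothing to the count of 17.

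Stress programmes differed between the 4 livers. Of 20 endoplasmic reticulum stress genes none was shared by all 4, and 1 was shared lower without liver 84. The list had median differences of -0.94, 0.71, -0.37 and -0.30 in livers 64, 84, 87 and 235. Hspa5, its leading chaperone gene, was at 10.13 in liver 84, above all of the 46 at 7.94 to 9.41, and at 8.47, 8.55 and 8.58 in the other 3, inside the percentiles. The interferon list had means of 5.10, 6.40, 5.66 and 6.31, against 4.41 to 6.40. Above the 95th percentile were 12 of 22 members in liver 84 and 11 in liver 235, beside 18.3% and 17.4% of all genes. Ifit1 was at 8.94 and Usp18 at 8.68 in liver 84, against maxima of 7.37 and 7.64. Below the 5th percentile in liver 84 there were 3 of the 22 members and 17.7% of all genes. The acute phase list had medians of -0.78, 0.32, 0.08 and -0.07, with Saa4 and Itih4 as the 2 shared lower genes among 31. Without liver 84, 1 of its genes was shared higher. Over all genes 2.08% were shared lower, and without liver 84 it was 3.88% lower and 3.3% higher. Vegfa, a hypoxia target, was at 10.86 in liver 87, above the highest of the 46 at 10.34, and it was at 8.51, 9.27 and 8.58 in livers 64, 84 and 235. The glucose carrier gene Slc2a1 was at 6.82, 7.83, 8.48 and 7.77, with liver 64 inside the percentiles.

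In 192 genes 1 liver lay beyond the opposite percentile from the other 3. Liver 64 was the odd one in 75 of these genes, liver 84 in 70, liver 235 in 24 and liver 87 in 23. Fgf21, a fasting hormone of the liver, was at 4.78, 4.003 and 4.59 in livers 64, 84 and 87, below the lowest of the 46 at 4.90, and at 7.18 in liver 235, against a median of 5.90. Ppp1r3c, a glycogen targeting subunit, was at 8.96 in liver 87, above all 46, and at 5.15, 5.35 and 5.47 in livers 64, 84 and 235, below all 46. Cxcl13, the B cell chemokine gene, was at 5.12 in liver 64 and at 9.40, 10.20 and 11.95 in livers 84, 87 and 235, against a median of 6.59. Foxq1, a forkhead factor gene, was at 7.76 in liver 84 and at 4.82, 5.28 and 5.19 in the other 3, against a median of 6.68.

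The 46 other livers were not free of the same shifts. A median liver among them lay below the 5th percentile for 3.15% of the shared lower genes and above the 95th for 3.96% of the shared higher genes. Several of the livers with low correlation had much higher shares. Liver 161 reached 35.1% and 31.4%, and liver 10 reached 28.4% and 39.1%. Liver 179, next in the order of correlation, had 21.3% and 12.7%, and liver 91 had 11.3% and 7.47%. Liver 96 reached 33.0% and 15.6%, and liver 257 reached 30.2% and 23.3%. These livers helped to set the percentiles against which they are counted. Some of them were at the top of a cell type list as well. Liver 161 had the highest mammary and tumour list mean, liver 96 the highest pancreatic acinar list mean at 10.32, and liver 257 the highest erythroid list mean of the 46 at 5.56. The part of these cells in the shares was not tested.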

How the data were processed

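Liver RNA (100 ng, per the labels' protocols) of 50 mice was measured on 1 Affymetrix array each. The authors deposited log2 signals. The submitters' processing notes name Affymetrix Expression Console 1.4.1 and the RMA method. This method is meant to equalise the distribution of values between arrays, so that overall RNA differences are removed. The spread of the array values was not fully equal, however. The interquartile range was 2.6577, 2.6383, 2.5494 and 2.5727 in livers 64, 84, 87 and 235. Each was above the highest of the other livers at 2.5489, though barely so in liver 87. The part of this wider spread in the shared counts was not tested. Of 41345 probe sets, 23521 carried 1 gene symbol, 1814 several and 16010 none. The probe set with the highest median stood for a gene, which gave 22180 genes, 11090 of them at or above the median level of 3.61.

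Each of the 4 livers was set against the 5th and 95th percentiles of the other 46 (Python 3.11.15, numpy 2.4.6, pandas 2.3.3). The rule was also run on simulated data with independent genes and equal spread in all livers. That run gives no error rate for these 4 livers, which were chosen as unusual. Of 1146 genes in 54 lists, 1033 were measured. The 4 livers, the lists and the alternatives were chosen with earlier results of these data known. Shared counts between pairs of livers were not made, because the pairs share the 46, and promoters were not analysed here.

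Genes were named by rule: the 15 shared lower and 15 shared higher genes with the largest weakest difference, up to 4 shared members and 1 other member of each list, the transcription factors, up to 5 genes per single liver, 5 genes with 1 liver opposed, and cell type markers extreme in 1 of the 4. Chosen after their values were seen were the kidney lists, Hmgcs1, Cyp51, Srebf2, Fasn, Scd1, Thrsp, Acly, Lpin1, Slc10a1, Abcb11, Cyp7a1, Hamp, Igf1, Ghr, Hspa5, Usp18, Ifit1, Vegfa, Slc2a1, Angpt2, Mki67, Marco, Gzma, Csn2 and Erbb2.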

Additional observations from a re-analysis of the deposited data

Results flagged for a closer look

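The mean of each of 58 gene lists was examined over the 4 livers for 1 value far from the other 3, by the gap to its nearest neighbour as a share of the whole range. Of the 58 lists 8 gave such a value. Chance gives it in about 1 of 20 groups of ordinary samples, but that rate cannot be applied here, since the 4 livers were picked for their unusual arrays and the kidney lists were drawn up after the kidney values of liver 84 had been seen. In liver 84 the proximal tubule mean of 8.47 and the distal nephron mean of 6.38 stood far above the other 3 livers. The cholangiocyte mean of 5.05 was also above the other 3, but below 5.63, the highest among the livers outside the 4. The mean for nuclear-retained RNAs was 6.63, against 6.35, 6.34 and 6.38 in livers 64, 87 and 235. It was above the range of 6.19 to 6.49 of the livers outside the 4. Of the 7 genes in that list, 1 was above the 95th percentile in liver 84 and 1 below the 5th. Liver 64 had an acute phase mean of 7.87, below the other 3, and a ribosome biogenesis mean of 7.66, above them. Its acute phase mean lay inside the range of 7.71 to 10.31 of the livers outside the 4. The carboxylesterase mean of 7.27 in liver 87 and the cholesterol synthesis mean of 7.53 in liver 235 were the highest of the 4, and each of these lists had 3 livers close together at a lower level.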

How the results depend on the processing

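The counts of shared lower and shared higher genes, 461 and 455, depend on the threshold and the scale. They were 175 and 144 beyond all 46 livers, 754 and 721 at the 10th and 90th percentiles, and 95 and 13 where each difference had to reach 1 log2. Centring each array on the ribosome list, which moved the 4 arrays down, gave 8534 and 15. All 461 shared lower genes stayed among the former, which such a shift makes likely. Leaving out 1 of the 4 livers gave 564 to 958 shared lower and 691 to 816 shared higher genes. Centring on array medians gave 510 and 374, of which 435 and 362 were in the original sets. The median correlation of liver 87 was 0.967 over all named genes, above the lowest of the 46 at 0.963, and Spearman's rho was 0.923, below the lowest at 0.933. Array-median centring, averaged probe sets and, for genes, centring within stretches of animal numbers gave 902 new median differences for 262 genes and 58 lists. Of these, 10 moved by over 1 SD of the 46 and 19 changed sign, 15 of genes that were not shared and 4 of list medians, but 0 of the 114 shared genes. Ribosome centring is not among them, and it turned the sign of 12 to 16 of 58 list medians per liver. No paired analysis was possible because all mice form 1 group. With 1 array per liver, array error and animal differences cannot be told apart.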
